A study of Homo sapiens with 14 samples.

Results

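The genes described here encode the protein components of the mitochondrial ribosome. They are the protein-coding genes of GENCODE release 29 whose symbol begins with MRPL or MRPS followed by a number, and 78 of the 58037 gene identifiers in the count table met that rule, 49 of them MRPL and 29 MRPS. By their place in the assembled particle, 26 belong to the small subunit and 51 to the large subunit. MRPS30 and MRPS18A carry a small-subunit symbol but sit in the large subunit, and MRPS36, a component of the 2-oxoglutarate dehydrogenase complex also known as KGD4, is not part of the particle.

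The mitochondrial ribosome translates the mRNAs of the mitochondrial genome, all of which encode subunits of the oxidative phosphorylation complexes. Its proteins are encoded in the nucleus, translated on cytosolic ribosomes and imported, so that their mRNAs pass through the machinery that homoharringtonine inhibits. Part of the set has counterparts in bacterial ribosomes (16 proteins of the small subunit and 29 of the large) and the remainder is specific to mitochondria (10 and 22).

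All libraries came from OCI-AML2, an established human acute myeloid leukaemia line. Parental cells were labelled Runx1wt/wt, and the other cells carried 1 nonsense allele of the transcription factor RUNX1 (Runx1R174*/wt). Total RNA was sequenced from untreated parental cells (n = 2), from mutant cells of the control arm (n = 4) and from mutant cells given 100 nM homoharringtonine (HHT), an inhibitor of cytosolic translation elongation, for 8 h (n = 4). RiboLace, which recovers RNA bound to actively translating ribosomes with a puromycin derivative, was applied without drug to parental cells (n = 2) and mutant cells (n = 2). The mutant libraries came from 2 lines, named F3 and G7: replicates 1 and 2 of the control and HHT arms and both RiboLace mutant libraries were F3, and replicates 3 and 4 were G7. No HHT library of parental cells was analysed here. The treatment label of the mutant controls reads 8 h while their descriptions read 0 h. The parental cells are labelled as having no treatment, and the descriptions of their total RNA libraries also read 0 h. Which of these holds is not known, so genotype and control handling cannot be told apart, nor can HHT and time in culture if the descriptions hold. Nothing in the labels says that replicates were separate cultures, and p-values then measure only the spread between these libraries. In bulk RNA a lower level in every cell and fewer cells with the transcript cannot be told apart.

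Total RNA libraries held 19250789 to 21925693 assigned reads, and RiboLace libraries held 2034796 and 1054581 (parental) and 1192811 and 465052 (mutant). Protein-coding genes took 97.8 to 98.3% of reads in total RNA and 74.5 to 77.9% in RiboLace. The summed level of 7 myeloid markers was 1096 to 1548 CPM (reads of a gene on a common library scale) in total RNA. Erythroid and lymphoid markers stayed at 0 to 2.85 over the libraries of both assays. Adherent-cell markers summed to 0.44 to 1.29 CPM in total RNA and 6.43 to 25.4 in RiboLace, mostly COL1A1. In CPM, RUNX1 was at 142 and 132 (parental total RNA), 80.0 and 84.4 (controls of F3), and 134 and 117 (controls of G7); gene counts do not show the allele.

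To show what surrounds the start of the genes that moved most under HHT, the promoters of the 2 members with the largest rises and of the 2 with the largest falls are printed here, 5′ to 3′, each from 250 bases before to 50 bases after the RefSeq start (build GRCh38.p14). Capitals mark matches to the 3 motifs searched on both strands: CCGGAAG (the ETS site bound by GABPA), AAGATGG (YY1) and CACGTG (the E-box of MYC and MAX). Rises came from MRPL49 (chr11:65121933-65122232, plus strand) and MRPS31 (chr13:40771141-40771440, minus strand). Falls came from MRPL34 (chr19:17292323-17292622, plus strand) and MRPL37 (chr1:54199917-54200216, plus strand).
MRPL49: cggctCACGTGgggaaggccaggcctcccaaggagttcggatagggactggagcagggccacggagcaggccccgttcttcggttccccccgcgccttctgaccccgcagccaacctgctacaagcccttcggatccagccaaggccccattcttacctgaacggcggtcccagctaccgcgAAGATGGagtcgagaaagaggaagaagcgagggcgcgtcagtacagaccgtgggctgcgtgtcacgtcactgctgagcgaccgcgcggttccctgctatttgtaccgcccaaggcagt
MRPS31: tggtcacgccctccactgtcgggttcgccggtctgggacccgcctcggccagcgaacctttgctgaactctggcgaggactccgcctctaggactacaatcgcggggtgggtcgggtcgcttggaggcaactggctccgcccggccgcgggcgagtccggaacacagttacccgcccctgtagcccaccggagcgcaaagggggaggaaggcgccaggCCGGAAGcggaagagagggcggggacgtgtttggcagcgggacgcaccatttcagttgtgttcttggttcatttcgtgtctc
MRPL34: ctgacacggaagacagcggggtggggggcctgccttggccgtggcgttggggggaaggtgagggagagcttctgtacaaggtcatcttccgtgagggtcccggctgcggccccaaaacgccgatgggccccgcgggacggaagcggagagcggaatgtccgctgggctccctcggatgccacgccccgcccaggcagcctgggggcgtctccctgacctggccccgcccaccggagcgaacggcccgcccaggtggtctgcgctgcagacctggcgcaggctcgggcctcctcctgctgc
MRPL37: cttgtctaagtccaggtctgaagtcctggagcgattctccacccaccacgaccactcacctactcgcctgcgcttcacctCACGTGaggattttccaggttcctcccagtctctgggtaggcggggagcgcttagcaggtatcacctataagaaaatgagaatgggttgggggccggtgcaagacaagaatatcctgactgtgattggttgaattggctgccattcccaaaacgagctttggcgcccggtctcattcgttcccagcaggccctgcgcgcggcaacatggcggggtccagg

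Windows were found for 69 of the 78 genes. The ETS letters were present in 29 of them (42.0%, against 10.7% of all 27305 promoter windows), the YY1 letters in 23 (33.3% against 6.06%) and the E-box in 6 (8.70% against 7.43%). No motif was found in 25 windows, and ETS and YY1 letters occurred together in 9. With windows that began 100 bases before the start, the ETS letters were found in 25 members, the YY1 letters in 20 and the E-box in 1. Both subunits held the ETS letters at a like rate, in 11 of 25 small-subunit windows and 18 of 44 large-subunit windows. These matches describe letters within the window and do not show that a factor binds there. The median log2 HHT response was 0.04 in members with the ETS letters and -0.09 in those without, and 0.07 and -0.08 for YY1. MRPL49 and MRPS31, which rose by like amounts, shared none of the 3 motifs, and the MRPL34 window held none.

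Levels of the 78 mRNAs spanned a wide range in parental total RNA. On a scale that corrects for the merged length of a gene's annotated exons (TPM), MRPS34 of the small subunit was highest at 645. MRPL33 at 566 and MRPS18B at 408 followed. The merged length (1097 bases for MRPS34 and 6432 for MRPL46) need not be that of the transcripts present, so ranks by TPM depend on the annotation. The lowest were MRPL46 at 4.23, MRPL38 at 3.54 and MRPS24 at 0.736 TPM. MRPS24 received only 5 to 13 reads in any total RNA library, and 23.2% of its exon bases are shared with the read-through gene URGCP-MRPS24, so its listed level cannot be taken as the output of the gene. Of the 3 paralogues of the MRPS18 family, MRPS18B stood at 239.6 and 223 CPM in parental total RNA, MRPS18A at 31.5 and 36.3, and MRPS18C at 12.3 and 10.4.

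As a group the genes took 0.609 and 0.584% of parental total RNA reads, 0.496 to 0.548% in mutant controls and 0.573 to 0.624% after HHT. The RiboLace shares were 0.425 and 0.378% in parental and 0.296 and 0.272% in mutant cells. On the CPM scale, adjusted for composition by the trimmed mean of M-values (TMM), the sums were 6460.2 and 6169 (parental), 5263 to 5901 (control) and 5048 to 5863 (HHT). HHT thus lay above control as a share of reads and overlapped it on the TMM scale. Summed CPM of the large subunit was 1.80 to 1.97 times that of the small subunit in all 10 total RNA libraries and 1.66 to 2.06 times in RiboLace, with no separation of parental, control and HHT libraries.

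**Figure D1:**
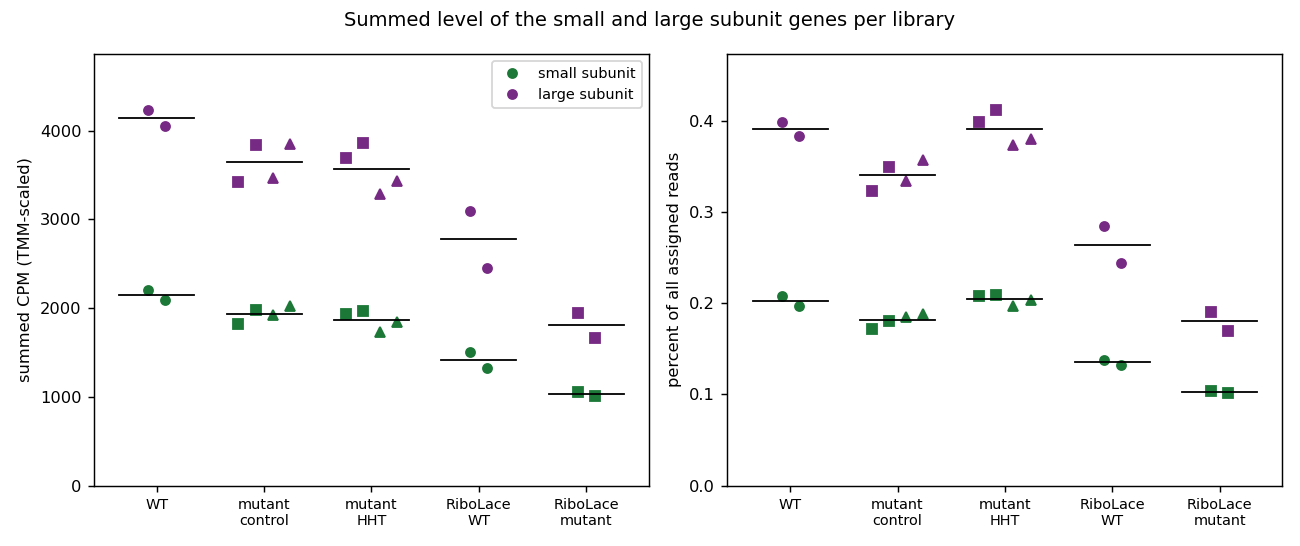
Summed level of the small-subunit genes and of the large-subunit genes in each library, with marker shape for the line. The left panel gives TMM-scaled CPM and the right panel percent of assigned reads, and MRPS36 is not plotted. Parental total RNA stood above the mutant controls for both subunits on both scales. The large subunit was at 4229 and 4054 against 3424 to 3850.5 CPM and the small subunit at 2204 and 2087 against 1817 to 2027 CPM. HHT libraries stood above controls only as a percent of reads.

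The effect of HHT was measured in the mutant lines, 4 HHT against 4 control libraries with the line as a covariate. The mRNAs of the mitochondrial ribosome did not move as a block: 30 rose, 24 fell and 24 did not pass the test (edgeR quasi-likelihood F-test, Benjamini-Hochberg adjusted p under 0.05 over 13621 genes). Of the members 38.5% were called up and 30.8% down, beside 39.9% up and 39.3% down over all genes tested (79.2% called), and the difference between these shares was not tested. Their median log2 fold change was 0.02, beside -0.00 over all genes. Most changes were small, with 62 members (79.5%) under 1.5-fold and 3 (3.85%) at 2-fold or more (MRPL49, MRPS31 and MRPL34), while 44.9% of all genes tested were under 1.5-fold and 31.9% at 2-fold or more. Small-subunit genes split into 9 that rose and 6 that fell of 26 (median -0.0046), and large-subunit genes into 20 and 18 of 51 (median 0.04). Within the small subunit, 8 of the 16 bacterial-type genes rose and 2 fell, while 1 of the 10 mitochondrion-specific genes rose and 4 fell. Bacterial-type genes of the large subunit split 12 to 11 of 29 and the mitochondrion-specific ones 8 to 7 of 22. The difference between these classes was not tested.

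**Figure D2:**
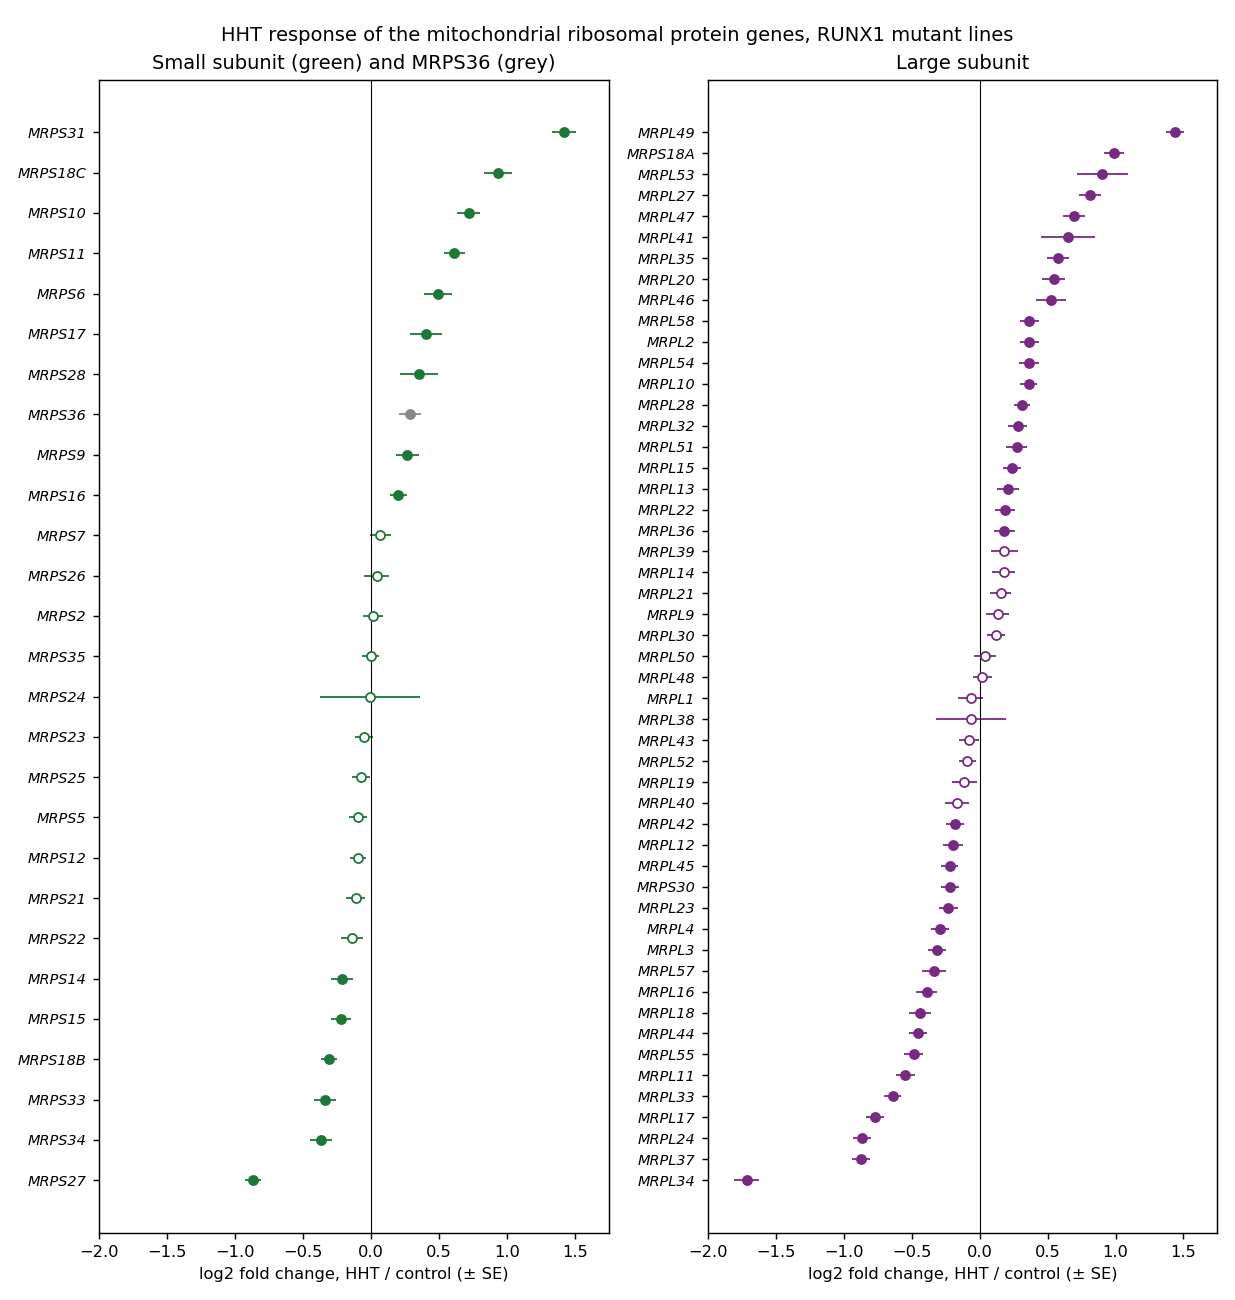
Log2 fold change of HHT over control for each of the 78 genes with its standard error (horizontal axis), small subunit and MRPS36 on the left and large subunit on the right; filled points passed the test. Values run from -1.71 (MRPL34) to 1.44 (MRPL49), and both subunits hold genes on either side of 0.

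Direction of the group depended on the scaling. With library totals alone, 45 members rose and 10 fell and their median was 0.25. All genes moved with them: 49.1% were then called up and 30.2% down, and their median went from -0.00 to 0.23. TMM factors were 0.913 to 0.965 in controls and 1.07 to 1.14 in HHT libraries. Relative to all genes the members' median was therefore 0.02 under either scaling. Of the 54 called members, 40 kept their call and direction with library totals and 7 turned direction, among them MRPL12 and MRPS30 of the named genes.

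The largest rise was that of MRPL49, a mitochondrion-specific protein of the large subunit (GRCh38 chromosome 11, 65122183 to 65127371). The 4 control libraries read 43.9 and 44.4 (F3) and 35.9 and 42.8 CPM (G7), against 125 and 126 (F3) and 97.5 and 108 (G7) after HHT. Every HHT library was thus above every control library, and parental cells, at 42.9 and 44.0, lay among the controls. The log2 fold change was 1.44 (SE 0.07, adjusted p = 2.13e-10). MRPL49 shares 12.2% of its exon bases with FAU and SYVN1, which moved the other way (log2 -0.37 and -0.50).

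MRPS31, a mitochondrion-specific protein of the small subunit (chromosome 13, 40729135 to 40771173), went from 30.1, 29.9, 26.7 and 33.5 CPM in the controls to 82.4, 90.2, 68.4 and 82.4 after HHT. The groups did not overlap, and the log2 fold change was 1.42 (SE 0.09, adjusted p = 2.37e-09). It was the single member of the 10 mitochondrion-specific small-subunit genes that rose. MRPS31 has 4 named pseudogenes, and how the counting treated reads shared with them was not given in the sources used here.

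Of the 3 MRPS18 paralogues, MRPS18A and MRPS18C rose while MRPS18B fell. MRPS18A, which sits in the large subunit, read 29.6, 32.3, 33.0 and 31.1 CPM in the controls and 67.8, 69.8, 55.7 and 58.6 after HHT (log2 0.99, SE 0.07, adjusted p = 2.18e-08). MRPS18C, the bacterial-type member of the trio, read 8.38, 10.7, 11.0 and 10.5 and then 19.1, 20.9, 17.7 and 20.5 (log2 0.94, SE 0.10, adjusted p = 9.84e-07). MRPS18B, the most abundant of them, went from 222, 240.3, 214 and 243 CPM to 187, 189, 179 and 191 (log2 -0.31, SE 0.06, adjusted p = 3.06e-04). In all 3 genes the HHT libraries and the controls did not overlap. MRPS18A shares 47.0% of its exon bases with RSPH9, whose mean was 0.568 CPM in controls and 1.83 after HHT, and MRPS18C shares 40.2% with ABRAXAS1, which fell (log2 -0.93).

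The largest fall was that of MRPL34, a small bacterial-type protein of the large subunit (chromosome 19, 17292609 to 17306843). MRPL34 went from 50.5 and 61.0 (F3) and 49.2 and 56.7 CPM (G7) to 18.0 and 19.4 (F3) and 15.6 and 13.9 (G7). The highest HHT library lay far below the lowest control, and parental cells were at 61.7 and 64.6. The log2 fold change was -1.71 (SE 0.09, adjusted p = 5.08e-10), while ABHD8, which shares exon bases with it, rose (log2 0.41).

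A trio of abundant members followed with falls of like size. MRPL37, a mitochondrion-specific large-subunit protein (chromosome 1, 54184041 to 54225464), went from 244, 274, 256 and 266 CPM to 159, 152, 131 and 129 (log2 -0.88, SE 0.07, adjusted p = 2.52e-08). MRPS27, a mitochondrion-specific small-subunit protein, went from 246, 246, 232 and 256 to 138, 131, 132 and 138 (log2 -0.87, SE 0.06, adjusted p = 5.99e-09). MRPL24, a bacterial-type large-subunit protein, went from 79.4, 91.7, 87.4 and 88.5 to 48.3, 51.4, 44.9 and 46.5 (log2 -0.87, SE 0.07, adjusted p = 2.48e-08). No HHT library reached the control range in any of them.

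**Figure D3:**
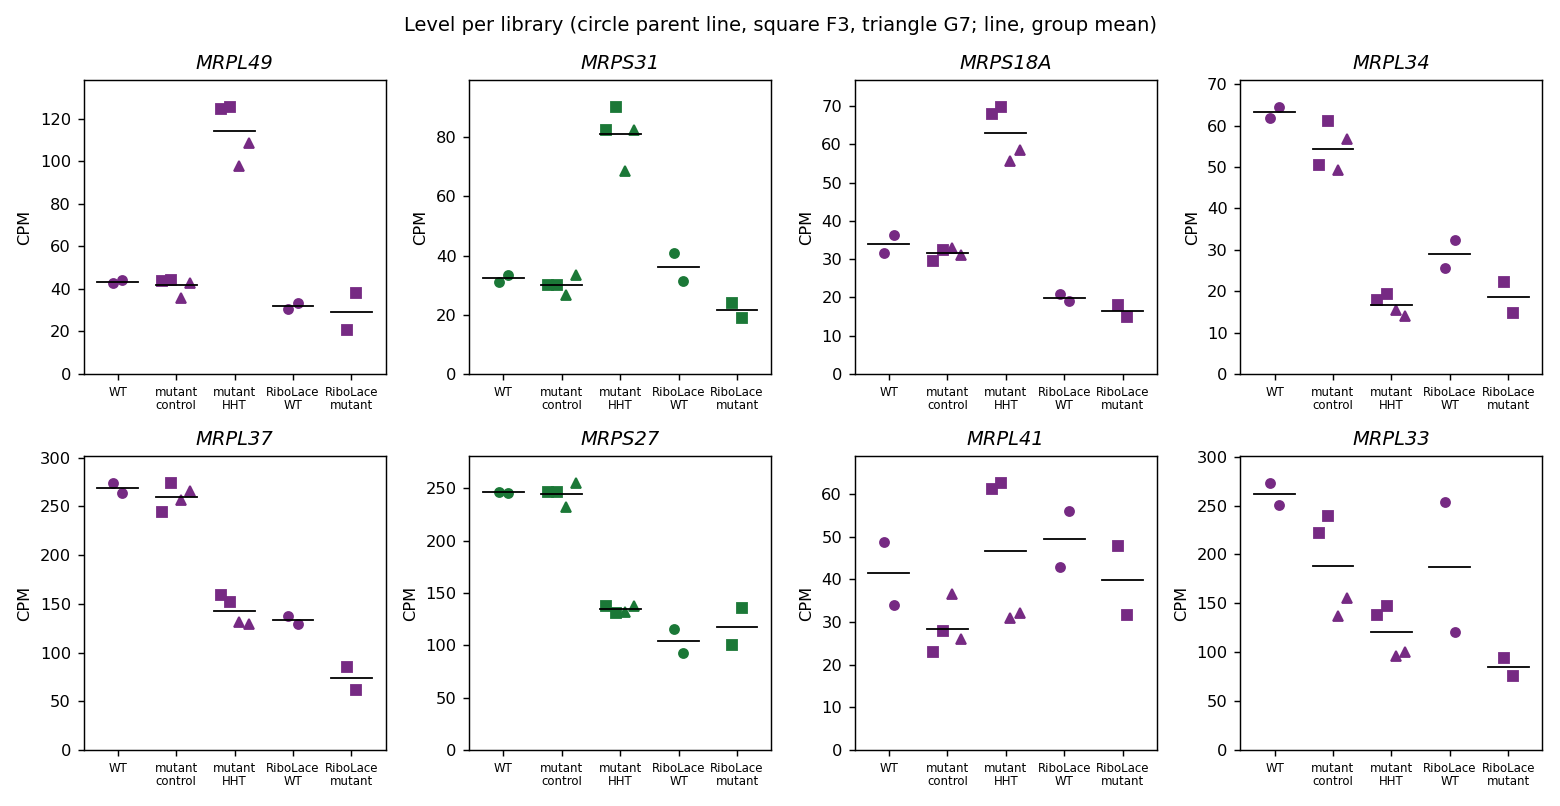
TMM-scaled CPM of 8 genes in every library by group, with lines for group means and marker shape for the cell line (circle parental, square F3, triangle G7). MRPL49, MRPS31 and MRPS18A are higher and MRPL34, MRPL37 and MRPS27 lower in all 4 HHT libraries than in all 4 controls, MRPL41 is higher after HHT in F3 only, and MRPL33 differs between the lines.

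The other named members had smaller values. MRPL12, of the stalk that recruits translation factors, fell (log2 -0.20, adjusted p = 0.0267), although its groups overlapped. Its call was lost in 2 edgeR fits that left out 1 library (adjusted p up to 0.108). MRPS30 (log2 -0.22, adjusted p = 0.00757) and MRPS34 (log2 -0.37, adjusted p = 9.76e-04) fell too. MRPL58, a peptidyl-tRNA hydrolase built into the large subunit, rose (log2 0.37, adjusted p = 2.20e-04), and MRPS36 rose as well (log2 0.29, adjusted p = 0.00439), although the groups overlapped. MRPS12, of the decoding centre, stood at log2 -0.10 (adjusted p = 0.162). The sign of MRPL12, MRPS30 and MRPS12 turned positive with library totals alone. The low-abundance MRPL46 rose (log2 0.53), whereas MRPL38 at -0.06 and MRPS24 at -0.01 did not pass the test.

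Groups did not overlap for 36 members, 21 higher and 15 lower after HHT. Over all genes tested 66.8% were separated in that way, 34.8% higher and 32% lower. Of the 14 members that share over 20% of their exon bases with another gene, 6 rose and 3 fell. Of the 34 with a named pseudogene 18 rose and 8 fell, and of the 44 without, 12 rose and 16 fell. Among the 20 with no shared exon base and no named pseudogene, 6 rose and 7 fell (median -0.00). Whether shared reads contributed was not tested. MRPL46 and MRPS11, whose starts lie 34 bases apart on opposite strands, both rose (log2 0.53 and 0.61), the latter named after its value was seen. Other members with an opposite-strand start nearby moved with that gene or against it. MRPS18C and HELQ both rose (0.94 and 1.61). MRPL47 and NDUFB5 (0.69 and -0.33) and MRPS27 and PTCD2 (-0.87 and 0.70) went opposite ways.

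Other parts of the mitochondrial expression system differed in direction under HHT. All 13 mitochondrially encoded mRNAs fell (median -0.95; 12 fell with library totals alone), among them MT-ATP6 (log2 -1.06) and MT-ND6 (log2 -1.09). Nuclear oxidative phosphorylation subunits mostly fell, 48 of 74 with 7 that rose (median -0.28), for instance NDUFV1 (log2 -0.90). With library totals alone 12 of these rose and 24 fell (median -0.05). Cytosolic ribosomal protein genes fell in 82 of 86 cases with 2 rises (median -0.72), among them RPL22L1 (log2 -2.14) and RPL12 (log2 -1.02), and 78 fell with library totals.

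Factors that build or serve the mitochondrial ribosome split. Assembly factors rose in 18 and fell in 8 of 27 cases (median 0.31, and 0.54 with library totals), with NSUN4, an rRNA methyltransferase, at log2 1.35 and the GTPase GTPBP10 at log2 1.53. Mitochondrial translation factors divided into 6 and 6 of 14 (median -0.07, and 0.16 with library totals), with the release factor MTRF1L at log2 2.19 and the ribosome recycling factor GFM2 at log2 -0.75. Mitochondrial tRNA synthetases fell in 11 and rose in 6 of 20 cases (median -0.28), or in 6 and 8 with library totals, including IARS2 (log2 -1.38). Mitochondrial RNA expression factors rose in 9 and fell in 6 of 18 cases (median 0.15, and 0.38 with library totals), LRPPRC standing at log2 -1.28 and FASTKD5 at log2 1.03. Of 5 ribosomal proteins with other symbols, PTCD3 rose (log2 0.20) and DAP3 fell (log2 -0.20).

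Both mutant lines were then compared in their response to HHT. All 78 members were tested in each line, and 66 (84.6%) had the same direction, beside 90.6% of the 13417 genes tested in both. Calls in both lines in the same direction were made for 37 members (47.4%, beside 64.6% of genes) and calls in opposite directions for 0 (beside 0.365%). Across the 78 genes the log2 fold changes of F3 and G7 had Pearson's r = 0.92 and Spearman's rho = 0.90, given as a description. Over 13417 genes Pearson's r was 0.94.

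**Figure D4:**
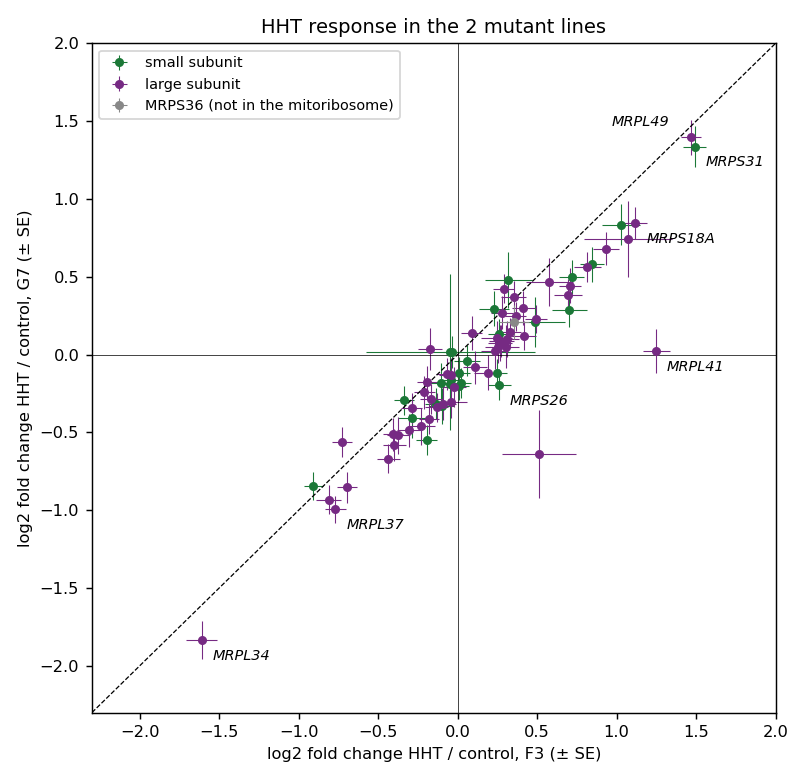
HHT log2 fold change in line F3 (horizontal axis) and in line G7 (vertical axis) for the 78 genes, with standard errors and the line of equality. Most genes lie near or just below that line; MRPL41 lies apart at 1.25 in F3 and 0.02 in G7.

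The difference of the responses itself (G7 minus F3) was called for 2 members, both lower in G7, beside 3.8% of 14435 genes tested (1.79% higher and 2% lower). MRPL41, a mitochondrion-specific large-subunit protein (chromosome 9, 137551199 to 137552555), went from 23.0 and 27.8 CPM to 61.1 and 62.7 in F3, and from 36.5 and 26.1 to 30.9 and 32.2 in G7. It rose in F3 (log2 1.25, SE 0.08) and stood at 0.02 (SE 0.14) in G7, a difference of -1.25 (SE 0.18, adjusted p = 0.00121, edgeR interaction term). That call held without any single library (highest adjusted p = 0.0287). MRPS26, of the small subunit, went from 63.6 and 72.2 to 81.6 and 85.2 CPM in F3, and from 70.8 and 65.5 to 58.8 and 59.5 in G7. Its difference was -0.48 (SE 0.12, adjusted p = 0.0334), and the call was lost in 7 of 8 fits that left out 1 library (adjusted p up to 0.247).

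Including those 2, 68 of the 78 members had a lower value in G7 than in F3, against 49.4% of all genes, and the median difference was -0.21 against 0.00 (-0.08 without the first F3 control and -0.09 without the second G7 control). No member had a higher response in G7 by edgeR (0 at an adjusted and 0 at an unadjusted p under 0.05, beside 8.78% of genes at the latter), and 14 were lower at an unadjusted p under 0.05, beside 8.88% of genes. Nuclear oxidative phosphorylation genes had a median difference of -0.22, with 2 of 75 called lower and 0 higher (16 lower and 1 higher at an unadjusted p under 0.05). The mitochondrially encoded mRNAs lay on the other side, with a median difference of 0.39 and 0 calls. The difference uses the same control libraries as the comparison of the untreated lines that follows.

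Without drug, F3 and G7 differed at 6 of the 77 members tested (5 higher and 1 lower in G7), against 15.9% of 13634 genes (7.37% higher and 8.52% lower). The lower member was MRPL33, a bacterial-type large-subunit protein, with CPM of 222 and 239 (F3) and 137 and 156 (G7; log2 -0.66, SE 0.11, adjusted p = 1.72e-05). MRPS6, of the small subunit, was higher in G7, at 27.0 and 26.2 CPM against 14.2 and 18.4 (log2 0.71, SE 0.13, adjusted p = 1.14e-04). MRPL39 (log2 0.55, adjusted p = 0.00159), MRPL50 (log2 0.40, adjusted p = 0.0204) and MRPL51 (log2 0.38, adjusted p = 0.0147) were higher too, and the fifth was MRPL35 (log2 0.34). The line gap in MRPL33 remained after HHT, with CPM of 138 and 148 (F3) and 96.4 and 100.3 (G7). The count fell to 1 without the first F3 control (3.08% of genes higher and 4.21% lower) and to 3 without the second (2.53 and 4.12%). It rose to 11 without the first G7 control (7.52 and 9.93%).

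Mutant controls were next set against parental cells in total RNA (4 against 2 libraries). Here 4 members fell and 0 rose, a share of 5.13%, while 4.56% of 13949 genes were called (2.49% up and 2.07% down). MRPL20 read 45.8 and 41.0 CPM in parental cells and 28.1, 32.7, 32.7 and 32.6 in mutant controls (log2 -0.47, SE 0.11, adjusted p = 0.0453). MRPS23 read 97.6 and 94.8 and then 67.1, 71.6, 68.7 and 76.2 (log2 -0.45, SE 0.09, adjusted p = 0.0312). MRPL27, near the peptidyl transferase centre, read 70.7 and 65.2 and then 47.2, 53.6, 45.8 and 54.0 (log2 -0.45, SE 0.11, adjusted p = 0.0479). MRPS26 read 94.4 and 87.7 and then 63.6, 72.2, 70.8 and 65.5 (log2 -0.43, SE 0.10, adjusted p = 0.0402). In each of the 4 genes both lines lay below both parental libraries.

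The remaining members leaned the same way without passing the test. In all, 74 of 78 had a log2 value below 0, against 49.5% of all genes, and the median was -0.20 against 0.00. Groups were fully separated with the mutant lower in 36 members and with the mutant higher in 0; over all genes 32.8% were separated, 16.1% with the mutant lower. At an unadjusted p under 0.05, 23 members were lower and 0 higher by edgeR (10.8 and 11.1% of all genes). DESeq2 called 6, all lower, beside 3.58% of genes called lower and 4.42% higher. None of the 4 calls held without either parental library or without either F3 control. With the mean of the lines set against the parent 22 members fell, beside 10.4% of genes called down. In F3 alone 22 members fell (11% of genes) and in G7 alone 10 (7.09% of genes).

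The members named throughout did not pass the test in this comparison: MRPL12 at log2 -0.24 (adjusted p = 0.205), MRPS12 at -0.21 (adjusted p = 0.252), MRPS18A at -0.11, MRPS18B at -0.02, MRPS18C at -0.16, MRPS30 at -0.05, MRPS36 at -0.24 and MRPL58 at -0.14. Nuclear oxidative phosphorylation genes fell in 7 and rose in 0 of 75 cases (median -0.28), among them COX7B (log2 -0.57) and NDUFAB1 (log2 -0.54). Mitochondrially encoded mRNAs rose in 4 of 13 cases (median 0.66), MT-ND1 by log2 0.91 and MT-ND4L by log2 0.95. None of the 86 cytosolic ribosomal protein genes was called (edgeR; 1 higher and 4 lower at an unadjusted p under 0.05). CHCHD1, a small-subunit protein with another symbol, fell (log2 -0.53), and so did the assembly factor RCC1L (log2 -0.41).

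In RiboLace libraries the same genotype contrast was available for line F3 (2 against 2). As F3 was the only mutant line, genotype and line cannot be told apart here. Of the genes called below, MRPL39 and MRPL51 were lower and MRPL33 was higher in F3 than in G7 without drug. Of 74 members tested, 10 fell and 0 rose, against 11.8% of 9805 genes called (6.18% up and 5.59% down), and the members' share down was 13.5%. 9 of the fallen genes encode large-subunit proteins and 1, MRPS12, a small-subunit protein. MRPL39 read 47.2 and 25.6 CPM in parental and 18.8 and 8.46 in mutant cells (log2 -1.29, SE 0.40, adjusted p = 0.0345). The value of 8.46 rested on 4 reads. MRPL13 read 93.8 and 61.7 and then 37.6 and 25.4 (log2 -1.25, SE 0.32, adjusted p = 0.0116). MRPL54 read 34.3 and 38.0 and then 14.5 and 16.9 (log2 -1.22, SE 0.38, adjusted p = 0.0326). In these genes the parental libraries lay above the mutant ones, although the 2 parental values for MRPL39 and MRPL13 were themselves far apart.

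MRPL57 followed at 103 and 75.9 against 51.3 and 21.2 CPM (log2 -1.19, SE 0.33, adjusted p = 0.0163), and MRPS12 read 63.8 and 87.3 against 43.6 and 31.7 (log2 -0.94, SE 0.31, adjusted p = 0.0473). The other called genes were MRPL33 (-1.13), MRPL52 (-1.09), MRPL18 (-0.94), MRPL51 (-0.94) and MRPL37 (-0.82). Altogether 70 of 74 members were below 0, against 50.8% of genes, with a median of -0.59 against -0.01, and 27 were lower and 0 higher at an unadjusted p under 0.05 (13.7% of all genes in each direction). The groups were separated in 58 members, 56 of them with the mutant lower. Over all genes 57.9% were separated, 29.2% with the mutant lower and 28.7% with it higher. The small and large subunits had medians of -0.61 and -0.59. DESeq2 called 0 members. The edgeR count was 0 without the second mutant library, which held 465052 reads (0.994% of genes lower), and 1 without the first parental (1.48%). It was 3 without the first mutant (2.15%) and 20 without the second parental library (8.95%).

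Among other gene groups, nuclear-encoded sets also held members that fell in mutant RiboLace. Nuclear oxidative phosphorylation genes fell in 26 of 72 cases (median -0.81; COX7B log2 -1.52, UQCRQ log2 -1.43) and cytosolic ribosomal protein genes in 16 of 79 (median -0.69; RPL32 log2 -1.34, RPL34 log2 -1.14). None of the 13 mitochondrially encoded mRNAs was called by edgeR (0 at an unadjusted p under 0.05; median -0.02). The summed myeloid markers were also lower in the mutant RiboLace libraries, at 893 to 1015 CPM against 1478 to 1902. The markers did not move alike. LYZ read 533 and 276 CPM in parental and 58.1 and 69.8 in mutant cells, and PTPRC, CD33, SPI1 and CSF3R were lower too. The groups overlapped for CEBPA (285 and 406 against 324 and 239) and MPO (28.4 and 21.8 against 38.5 and 27.5). The part of these markers in the results was not tested.

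RiboLace was then set against total RNA of the same line, in 1 fit over 8 libraries. In parental cells 29 members were lower and 5 higher in RiboLace, while of 15338 genes 48.3% were called (21% lower and 27.3% higher). In F3, 46 were lower and 4 higher, against 49.2% of genes (22.7% lower and 26.5% higher). The members' median was -0.30 in parental cells and -0.76 in F3, beside 0.01 and -0.02 over all genes. With protein-coding genes alone the members' medians were -0.22 and -0.65, beside -0.02 and -0.09 over the genes tested. With the size factors of DESeq2 (RLE) the parental counts were 24 lower and 6 higher, beside 18.3% of genes lower and 29.1% higher. The F3 counts were then 40 and 4, beside 19.3 and 28.5% of genes. The small subunit had 10 lower and 3 higher of 26 in parental cells and 14 and 1 in F3, and the large subunit 19 and 2 of 51, and 32 and 3. Without the first mutant RiboLace library the F3 counts were 33 lower and 0 higher, while 13% of genes were called lower and 15.7% higher.

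MRPL30, a bacterial-type large-subunit protein, had the lowest fitted ratio to its total RNA in parental cells. It read 54.6 and 58.5 CPM in parental total RNA and 5.89 and 2.85 in RiboLace (log2 -3.41, SE 0.31, adjusted p = 3.93e-09), and in F3 50.6 and 52.5 against 6.84 and 16.9 (log2 -2.27, SE 0.32, adjusted p = 4.07e-06). The RiboLace values of MRPL30 rested on only 11 and 3 reads in parental cells and 8 and 8 in F3. Of its exon bases 19.5% are shared with other genes. MRPL23, which lies at the exit of the peptide tunnel, read 123 and 94.4 against 26.8 and 19.9 in parental cells and 95.0 and 109 against 19.7 and 8.46 in F3 (log2 -2.02 and -2.54), the lowest fitted ratio of the members in F3. MRPS10 and MRPL10, the latter a stalk protein, were lower in both lines (parental log2 -1.45 and -1.37, F3 log2 -1.39 and -1.73), and MRPL54 stood at -0.77 in parental cells and -1.82 in F3.

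Higher in RiboLace were the low-abundance MRPL38 (log2 1.56 in parental cells and 2.07 in F3) and, in parental cells, MRPS28 (1.09), MRPS18C (0.93) and MRPL46 (0.79). The parental calls of MRPS28 and MRPS18C were lost without the first parental RiboLace library, and that of MRPL46 without the second. MRPL46 rested on 22 and 15 parental RiboLace reads. In F3 MRPL41 (0.86) and MRPL19 (0.51) were higher, and none of the 4 higher calls in F3 held without the first mutant RiboLace library (adjusted p = 0.615 for MRPL41 and 0.221 for MRPL19). MRPL38 rested on 18, 12, 11 and 5 RiboLace reads. MRPS24 was counted among the higher members in both lines on 9, 5, 8 and 2 reads, and MRPS17 among the lower in parental cells on 0 and 2 reads, so no fold is given for either. In all, 7 members had under 50 reads over the 4 RiboLace libraries.

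**Figure D5:**
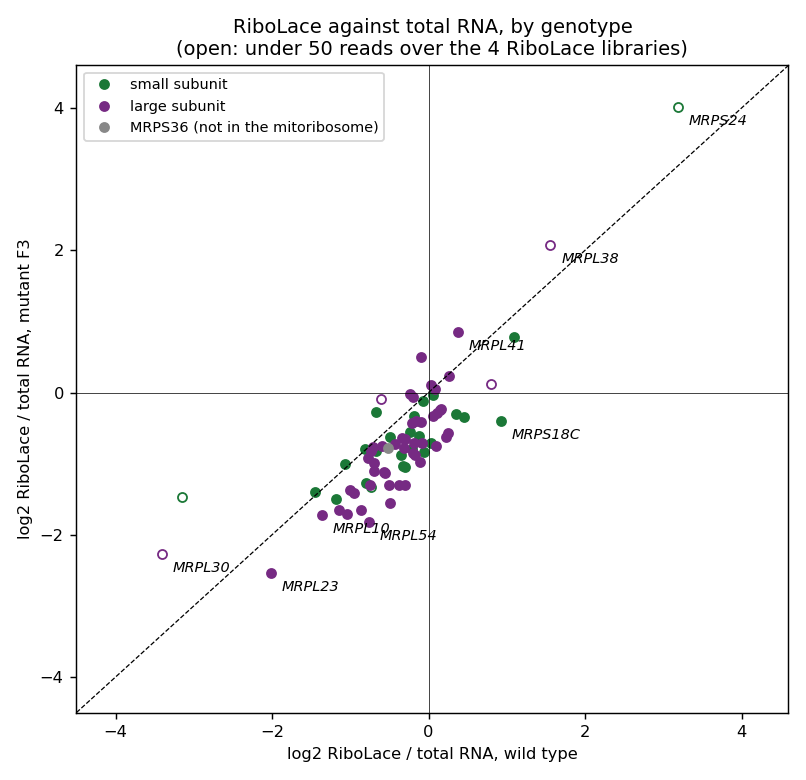
Log2 ratio of RiboLace to total RNA for the 78 genes in parental cells (horizontal axis) and in line F3 (vertical axis), with the line of equality; open points have under 50 reads over the 4 RiboLace libraries. Of the 78 genes, 64 lie below the line, and MRPL30 and MRPL23 are at the lower left.

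The change of this ratio between genotypes, the translational efficiency contrast, was called for 0 of 78 members by edgeR's interaction term, beside 1.49% of 15338 genes (0.482% up and 1.01% down). At an unadjusted p under 0.05, 20 members were lower and 1 was higher in F3 (9.67 and 6.9% of all genes), DESeq2 called 2 and limma-voom 0, and edgeR called 13 without the second parental RiboLace library, all lower, where 6.06% of genes were called lower and 3.05% higher. Values were below 0 in 64 of 78 members against 52.5% of genes, and the median was -0.39 against -0.04. The smallest p-values belonged to MRPL54 (log2 -1.06, SE 0.34, unadjusted p = 0.00509, adjusted p = 0.111), MRPL58 (log2 -0.92, adjusted p = 0.136) and MRPL37 (log2 -0.79, adjusted p = 0.137). Among the other groups, 8 of 86 cytosolic ribosomal protein genes were lower (median -0.75) and 0 of 75 nuclear oxidative phosphorylation genes were called (median -0.60; 36 lower and 1 higher at an unadjusted p under 0.05). The RiboLace comparisons share libraries with each other and with the total RNA contrast, so they are not separate observations. The mutant RiboLace libraries were all F3, so genotype and line cannot be told apart in them.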

How the data were processed

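RNA-seq of 14 OCI-AML2 libraries was deposited as raw counts of reads per Ensembl gene. The submitters' processing notes name STAR 2.6.0b, DESeq2 and GRCh38, without role or order, and the counter, its annotation release and its use of strand were not given in the sources used here. Reads of the members that share exon bases with other genes (41 of 78) or have named pseudogenes (34, with 75 pseudogenes in all) are therefore uncertain in their assignment, as are those of the 29 with an opposite-strand protein-coding start within 1000 bases. RiboLace steps were not described in the labels' protocols, which give total RNA extraction only.

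Identifiers were matched to GENCODE 29 (57388 of 58037 matched). Each comparison was fitted across all genes with edgeR 4.0.16 (R 4.3.3; filterByExpr with a minimum count of 10, TMM factors, glmQLFit and glmQLFTest), and p-values were Benjamini-Hochberg adjusted over all genes tested, with calls at 0.05. Standard errors were the log2 fold change divided by the root of F. CPM values are scaled with TMM within each assay. The HHT fit had the line as covariate, and its low-count filter was set by treatment group after first results had been seen. Groups follow the sample titles and the lines follow the descriptions. The fits were tested on simulated counts. Alternatives were DESeq2 1.42.0, limma 3.58.1 (voom), RLE factors, library totals, no filter, protein-coding genes alone, single lines, replicate blocks and leaving out each library. Promoter windows came from RefSeq (GRCh38.p14).

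Same-numbered HHT and control libraries deviated together (r = 0.435 to 0.576 over genes). These values include the line difference, since the same numbers belonged to the same line in both arms. Within a line r was 0.161 in F3 and 0.369 in G7, each from 1 difference between 2 libraries per arm. Such correlations cannot show whether libraries were paired, and the title numbers served for a replicate block as an alternative fit. The descriptions number these replicates otherwise than the titles do, and whether the libraries were paired is not known. The block gave 56 calls and kept all 54. No 2 replicates agreed within sampling noise (chi-square per degree of freedom 3.14 to 12.5).

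Named in each comparison were the 4 largest rises and the 4 largest falls among called members whose groups did not overlap, at a mean of at least 5 CPM (no overlap was not asked of differences of 2 contrasts), the 3 highest and 3 lowest members by TPM, MRPL12, MRPS12, MRPS18A, MRPS18B, MRPS18C, MRPS30, MRPS36 and MRPL58, the 3 smallest p-values where none passed, and up to 2 genes of each other list, of which some are not reported here. Further genes named were chosen after their values were seen. The members and lists were chosen with earlier results of these data known, and lists are described by counts and medians.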

Additional observations from a re-analysis of the deposited data

Results flagged for a closer look

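Levels of the named members and the subunit sums were examined in the control and HHT arms of total RNA, 78 sets of 4 libraries in all. In 3 of them, each in the control arm, 1 library lay past Dixon's limit for its gap to the others, which chance passes in about 1 of 20 sets. MRPL12 stood at 34.89 CPM in control replicate 2 and at 30.79 to 31.48 in the others. MRPL20 stood at 28.05 CPM in control replicate 1 and at 32.59 to 32.72 in the others, and it is one of the 4 members called lower in mutant than in parental total RNA. MRPS36 stood at 26.77 CPM in control replicate 2 and at 22.36 to 23.11 in the others. The 3 values come from 2 libraries, both of line F3.

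The HHT response of MRPL41 differed between the lines by -1.249 on the log2 scale (G7 minus F3) and that of MRPS26 by -0.4793, both past the threshold of edgeR's interaction term.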

How the results depend on the processing

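Counts of called members under HHT (54) stayed within 1.5 times of the main value in all 18 other fits, with 50 to 56 when 1 library was left out. With library totals alone MRPL12 (0.038), MRPS12 (0.14) and MRPS30 (0.013) turned positive, the median of all genes having moved to 0.23 by construction. The 4 members lower in mutant than in parental total RNA (beside 2.07% of genes) became 11 with no filter on low counts (2.67% of genes). Their number was 22 with line means (10.4%), 22 in F3 alone (11%) and 10 in G7 alone (7.09%). It was 17 with a replicate block in F3 (9.22%) and 28 with crossed numbers in the block (14.6%). Crossed numbers were an alternative chosen after seeing the data because same-numbered libraries deviated in opposite directions. Without 1 library the count ranged from 0 to 3. The untreated line difference (6) fell to 1 with no filter and ranged from 1 to 11 without 1 library, and the line difference of the HHT response (2) ranged from 1 to 6. The RiboLace genotype count (10) was 0 with DESeq2 (1.96% of genes lower), 14 with the replicate block (8.11%) and 0 to 20 without 1 library. RiboLace against total RNA ranged from 26 to 40 in parental cells and from 33 to 54 in F3 without 1 library; blocks gave 33 and 49, and crossed blocks 35 and 51. Translational efficiency calls (0) became 1 with no filter, 2 with DESeq2 and 0 to 13 without 1 library. For single named members, other settings gave 3 reversals, 43 losses and 19 gains of a call against 1011 values on the same side, and leaving out 1 library gave 83 losses and 14 gains against 821. The causes were not tested. RiboLace depth left 7 members with under 50 reads over the 4 libraries.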
